A study of Mus musculus with 14 samples.

Results

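The genes described are the interleukin-10 and interleukin-20 family of cytokines and their receptors in whole mouse ear. The 9 genes were taken by symbol from the 24035 genes of the deposited expression table. They are 4 ligand genes, Il10, Il19, Il20 and Il24, and 5 receptor genes, Il10ra, Il10rb, Il20ra, Il20rb and Il22ra1. All 9 were among the 14693 genes tested, which had at least 1 TPM, a share of a sample's transcripts corrected for their length, in at least 3 of the 14 samples. Il10, Il19 and Il24 reached 1 TPM only in croton oil samples, so these genes passed only through the groups in which they were high. Il20 reached it in 2 LC-DTA vehicle samples and 0 LC-DTR vehicle samples, too few for the filter. It too would not have passed without its croton oil samples.

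The samples were whole ears of 4 groups that share a loss of Langerhans cells, which are the epidermis' own dendritic cells. LC-DTA ears, in which Langerhans cells are missing long term, were taken after croton oil (n = 4) or after vehicle (n = 3). LC-DTR ears, taken 3 days after diphtheria toxin and so depleted in the short term, were likewise taken after croton oil (n = 4) or vehicle (n = 3). Ears were painted on 2 sides with 20 µl of 1% croton oil, an irritant plant oil, or of its vehicle of acetone and olive oil (4:1), and were taken after 6 h. DTA is the A subunit of diphtheria toxin and DTR is the toxin's receptor. The labels used here name no promoter for either transgene, and no strain, sex or age. No group that kept its Langerhans cells was analysed here, the toxin was given for the LC-DTR genotype, and the sample numbers in the labels do not interleave between the genotypes. Genotype, toxin and sample series therefore cannot be told apart, and the labels do not state that each sample is a different mouse, so the p-values measure the spread between these samples.

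Interleukin-10 is an anti-inflammatory cytokine made mainly by leukocytes. It binds a receptor of a ligand-binding chain, IL-10RA, which is found mostly on leukocytes, and a shared chain, IL-10RB, which is widely expressed. IL-19, IL-20 and IL-24 act mainly on epithelial cells such as keratinocytes. All bind the type I receptor made of IL-20RA and IL-20RB, and IL-20 and IL-24 also bind the type II receptor made of IL-22RA1 and IL-20RB. IL-22RA1 also pairs with IL-10RB to form the receptor of IL-22. These receptors signal through Janus kinases and STAT3, and in human epidermis IL-20-type cytokines and IL-22 raise antimicrobial and stress keratin genes and lower differentiation genes.

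The 4 ligand genes lie in 1 cluster on mouse chromosome 1, spanning 143 kb of GRCm38 by the GENCODE M21 annotation. Il24 lies on the minus strand at chr1:130882074-130887454. Il20, at chr1:130906985-130911451 on the minus strand, follows after a gap of 19.5 kb. Il19, at chr1:130932656-130940115 on the minus strand, lies 21.2 kb further on. Il10, at chr1:131019845-131024974 on the plus strand, lies 79.7 kb beyond Il19. The receptor genes are dispersed. Il10ra lies at chr9:45253837-45269149 and Il20rb at chr9:100457719-100486788, both on the minus strand. Il10rb lies at chr16:91406164-91425834, Il20ra at chr10:19712570-19760053 and Il22ra1 at chr4:135728172-135752140, all on the plus strand.

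RefSeq promoter windows on GRCm38.p6, which run from 250 bases before to 50 bases after a start, were matched for 5 of the 9 genes (Il19, Il20, Il20ra, Il20rb and Il22ra1). They were searched on both strands for an AP-1 motif (TGANTCA), a STAT motif (TTCNNNGAA) and the NF-kB motif. The 250 bases before the start are shown for the 3 genes whose window held a match, as 1 ligand gene that was called higher after croton oil and 2 receptor genes that were called lower. Capitals mark the matches.
Il19 upstream, chr1:130940116-130940365, minus strand: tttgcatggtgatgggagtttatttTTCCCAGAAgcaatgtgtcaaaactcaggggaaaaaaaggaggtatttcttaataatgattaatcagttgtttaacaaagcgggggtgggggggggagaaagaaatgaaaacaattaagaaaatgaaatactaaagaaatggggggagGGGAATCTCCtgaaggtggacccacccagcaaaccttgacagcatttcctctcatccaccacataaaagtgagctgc
Il20ra upstream, chr10:19712337-19712586, plus strand: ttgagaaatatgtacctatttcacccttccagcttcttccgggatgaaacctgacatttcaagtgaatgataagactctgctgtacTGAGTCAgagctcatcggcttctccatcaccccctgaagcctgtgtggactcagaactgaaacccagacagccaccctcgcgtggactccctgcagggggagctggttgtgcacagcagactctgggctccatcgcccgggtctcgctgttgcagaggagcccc
Il22ra1 upstream, chr4:135727909-135728158, plus strand: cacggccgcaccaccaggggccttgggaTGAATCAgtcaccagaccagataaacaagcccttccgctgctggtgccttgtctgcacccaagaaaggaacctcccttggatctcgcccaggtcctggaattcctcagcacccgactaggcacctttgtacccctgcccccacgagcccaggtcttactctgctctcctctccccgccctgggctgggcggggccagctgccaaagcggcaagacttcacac
The Il19 window held a STAT match, TTCCCAGAA, from position -225 and an NF-kB match, GGGAATCTCC, from position -77, counted from the start. The Il20ra window held an AP-1 match, TGAGTCA, from position -164. The Il22ra1 window held an AP-1 match, TGAATCA, from position -222. The windows of Il20 and Il20rb held none of these letters. Of 32851 RefSeq promoter windows of the same length, 7.81% held the AP-1 motif, 8.3% the STAT motif and 4.51% the NF-kB motif, so these matches are a description of the windows and not of sites in use.

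The ears held transcripts of epidermis and of other tissue: the 5 keratinocyte markers (Krt5, Krt14, Krt1, Krt10 and Trp63) summed to 16850 to 36010 TPM and the 3 skeletal muscle markers (Ckm, Acta1 and Myh4) to 680 to 1431 TPM. Cd207, which encodes the Langerhans cell lectin langerin, lay between 0.0567 and 1.88 TPM in all samples. Its mean was 1.18 ± 0.687 TPM in LC-DTR croton oil ears, against 0.259 ± 0.192 TPM in LC-DTR vehicle ears (SD). In LC-DTA ears Cd207 was at 0.529 ± 0.137 TPM after croton oil and 0.29 ± 0.32 TPM after vehicle. Cd207 fell below the filter, so these differences were not tested. Between 13733 and 14332 genes reached 1 TPM in a sample, and within-group correlations across genes were 0.986 to 0.996. TPM keep no read depth, so no counting error can be given. Of the 4 LC-DTR croton oil samples, samples 2 and 3 stood apart: on principal component 1, with 50.5% of the variance, they lay at 5.26 and 8.06, against 28.5 and 28.6 for samples 1 and 4, and between those and the vehicle samples. In whole tissue, fewer cells of a type and less RNA per cell cannot be told apart.

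After croton oil the 4 ligand genes were called higher and Il20ra, Il20rb and Il22ra1 lower in both genotypes. In LC-DTA ears 8 of the 9 genes were called by limma's test with Benjamini-Hochberg adjustment (adjusted p under 0.05): 5 were higher, where 24.2% of all tested genes were called higher, and 3 were lower, where 34.5% of all were called lower. In LC-DTR ears 7 were called: the 4 ligand genes were higher, where 22.1% of all tested genes were called higher, and 3 receptor genes were lower, where 29.5% of all were called lower. As a count, 3 lower of 9 is close to these shares of all genes in both genotypes. Where groups are said below not to overlap, the share of all genes without overlap was not counted. Differences are of log2(TPM + 1) with their standard error, on which scale changes of genes near 0 are understated. The median difference of the 4 ligand genes was 2.80 in LC-DTA ears and 1.69 in LC-DTR ears, against -0.09 and -0.06 over all tested genes in the same comparisons. Il10, Il19 and Il24 passed the filter only through croton oil samples, and Il20 would not have passed without them. Their calls and ranks, and this median, are therefore a description beside all genes and not independent of the filter. That of the 5 receptor genes was -0.62 in LC-DTA ears and -0.38 in LC-DTR ears. Without LC-DTR vehicle sample 1, the count in LC-DTR ears was 4, since Il24, Il20ra and Il22ra1 missed the threshold. After median ratio scaling, the share of all calls in LC-DTA ears that were higher was 51.6%, against 41.2% with the deposited values.

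**Figure D1:**
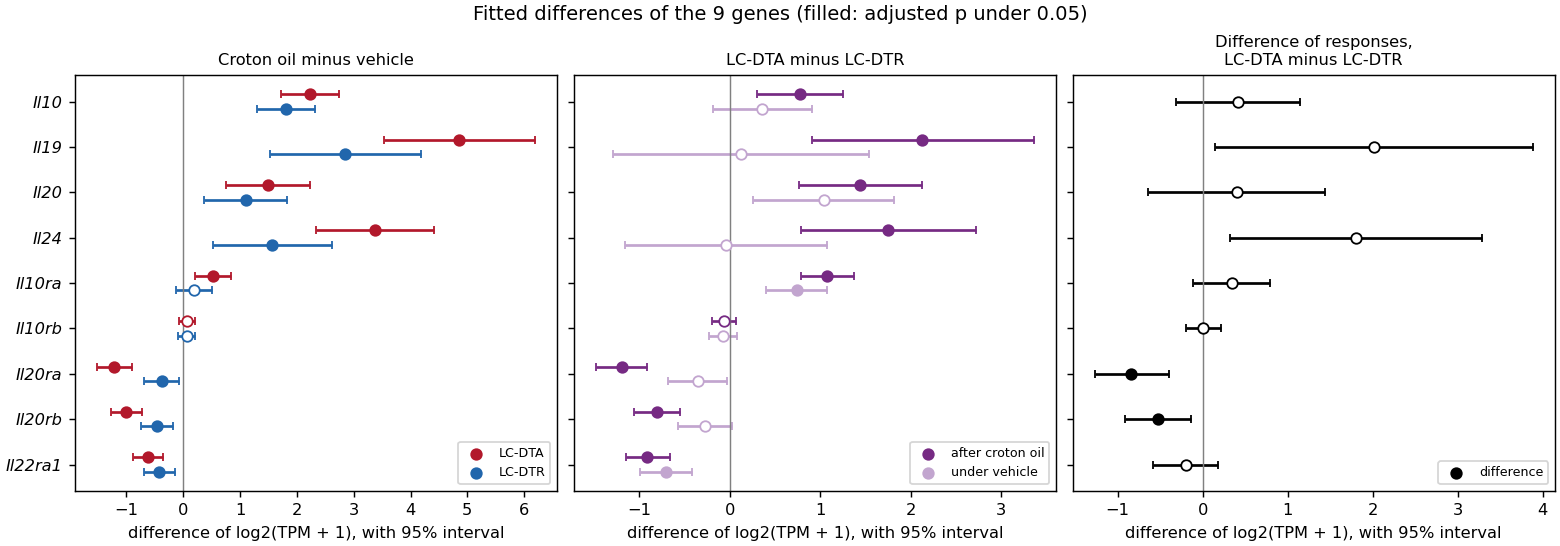
Fitted differences of log2(TPM + 1) for the 9 genes (rows), with 95% intervals; filled points have a limma adjusted p under 0.05. Left, croton oil minus vehicle in LC-DTA and LC-DTR ears; middle, LC-DTA minus LC-DTR after croton oil and under vehicle; right, the LC-DTA response minus the LC-DTR response. The ligand genes lie right of 0 on the left, and Il20ra and Il20rb are the filled points on the right, at -0.84 and -0.53.

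Il19, whose product signals through the type I receptor, had the largest response of the 9 genes and was the most abundant ligand transcript in both croton oil groups. It stood at 25.37, 47.64, 46.65 and 18.07 TPM in LC-DTA croton oil ears, against 0.127, 0 and 0.28 TPM in LC-DTA vehicle ears. In LC-DTR ears it stood at 9.49, 2.87, 1.6 and 29.02 TPM after croton oil, against 0, 0.118 and 0 TPM after vehicle. Neither pair of groups overlapped, and in LC-DTR ears samples 2 and 3 were lowest. The difference was 4.86 ± 0.62 in LC-DTA ears (adjusted p = 2.30e-05), rank 4 from the highest of the 14693 tested genes, and 2.85 ± 0.62 in LC-DTR ears (adjusted p = 0.00173), rank 24. Il19 made up 47.3 to 70% of the summed ligand TPM in LC-DTA croton oil ears and 31.1 to 67.8% in LC-DTR croton oil ears.

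Il24, whose product binds both IL-20 receptor types, rose as well. It stood at 11.73, 28.1, 8.52 and 5.07 TPM in LC-DTA croton oil ears, against 0.156, 0.235 and 0.118 TPM in LC-DTA vehicle ears. LC-DTR ears had 2.91, 1.3, 1.2 and 7.38 TPM after croton oil, against 0, 0.684 and 0.0382 TPM after vehicle. Again neither pair overlapped, and LC-DTA sample 2 and LC-DTR sample 4 were the highest of their groups. The difference was 3.37 ± 0.49 in LC-DTA ears (adjusted p = 6.35e-05) and 1.57 ± 0.49 in LC-DTR ears (adjusted p = 0.0152). The LC-DTR call was lost with a pseudocount of 5 (adjusted p = 0.131) and without vehicle sample 1 (0.0544) or 3 (0.0506), in a range of 0.0015 to 0.131 over 22 alternatives.

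Il20, whose product binds both IL-20 receptor types, was the ligand gene with the most transcript in LC-DTA vehicle ears. It stood at 3.51, 5.79, 4.84 and 7.57 TPM in LC-DTA croton oil ears, against 1.9, 0.752 and 1.15 TPM in LC-DTA vehicle ears. In LC-DTR ears it stood at 3.37, 0.374, 0.53 and 2.07 TPM after croton oil, against 0.111, 0.0732 and 0.0517 TPM after vehicle. Both croton oil groups lay above their vehicle groups, but LC-DTR samples 2 and 3 after croton oil lay below all 3 LC-DTA vehicle samples. Il20 rose by 1.50 ± 0.34 in LC-DTA ears (adjusted p = 0.00201) and by 1.10 ± 0.34 in LC-DTR ears (adjusted p = 0.0158). The LC-DTR call was lost with a pseudocount of 5 (adjusted p = 0.0581), in a range of 1.84e-04 to 0.0581 over 22 alternatives.

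Il10 rose in both genotypes and was low in every vehicle ear. It stood at 4.24, 6.3, 6.65 and 7.45 TPM in LC-DTA croton oil ears, against 0.482, 0.511 and 0.523 TPM in LC-DTA vehicle ears. LC-DTR ears had 5.05, 2.2, 1.81 and 4.31 TPM after croton oil, against 0, 0.246 and 0.294 TPM after vehicle. The groups did not overlap in either genotype. The difference was 2.23 ± 0.24 in LC-DTA ears (adjusted p = 6.85e-06) and 1.81 ± 0.24 in LC-DTR ears (adjusted p = 5.10e-05), and both were called in all 22 alternatives.

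The 4 ligand genes shared an order among the LC-DTR croton oil samples: samples 1 and 4 lay above samples 2 and 3 for each gene. Summed ligand TPM were 20.82, 6.74, 5.13 and 42.78 in LC-DTR croton oil ears, against 0.111, 1.12 and 0.384 in LC-DTR vehicle ears. In LC-DTA ears the sums were 44.85, 87.84, 66.66 and 38.16 TPM after croton oil, against 2.66, 1.5 and 2.07 TPM after vehicle. The LC-DTR croton oil samples thus spanned a wider range relative to their level than the LC-DTA ones.

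**Figure D2:**
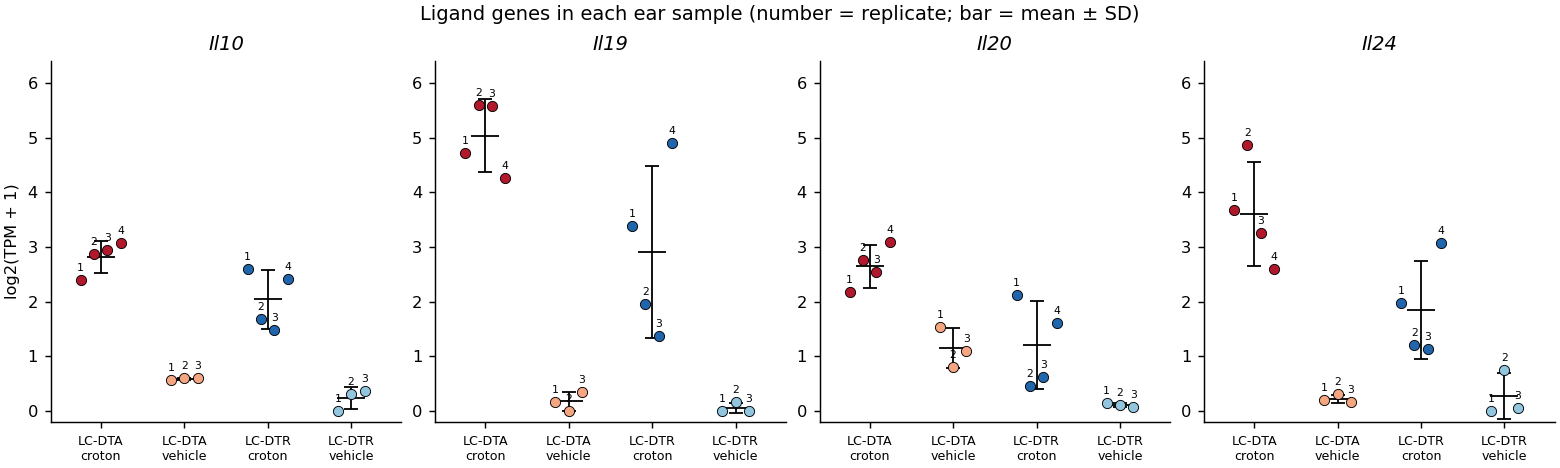
log2(TPM + 1) of the 4 ligand genes (panels) in each ear sample of the 4 groups; points are samples with their replicate number, and bars are the group mean ± SD. LC-DTR croton oil samples 2 and 3 lie below samples 1 and 4 in each panel, and vehicle samples lie at up to 0.684 TPM except for Il20 in LC-DTA ears, at 0.752 to 1.9 TPM.

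Markers of leukocytes moved in both directions in the same comparisons. The 5 neutrophil markers found (Csf3r, Cxcr2, Retnlg, Mmp9 and Cd177) were all called higher after croton oil in both genotypes, with sums of 83.67 to 127.3 TPM in LC-DTA croton oil ears, against 10.71 to 14.9 TPM in LC-DTA vehicle ears. In LC-DTR ears the neutrophil sums were 62.71 to 137.4 TPM after croton oil, against 9.25 to 11.53 TPM after vehicle. The 5 monocyte and macrophage markers found (Cd68, Csf1r, Mrc1, Ly6c2 and Ccr2) summed to 270.4 to 359.5 TPM in LC-DTA croton oil ears, against 185.2 to 239 TPM in LC-DTA vehicle ears. In LC-DTR ears they summed to 109.6 to 155.2 TPM after croton oil, against 85.31 to 121.6 TPM after vehicle. Of these 5, 3 were called higher and 1 lower (Csf1r) after croton oil in LC-DTA ears, and 1 higher with 4 not called in LC-DTR ears. Of the 4 T cell markers tested (Cd3d, Cd3e, Cd3g and Cd4), 3 were called lower in each genotype. The part of these cells in the ligand values was not tested.

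Il10ra, the leukocyte chain of the IL-10 receptor, was called higher after croton oil in LC-DTA ears. It stood at 9.57, 12.96, 11.26 and 9.6 TPM in LC-DTA croton oil ears, against 6.1, 8.15 and 7.37 TPM in LC-DTA vehicle ears, without overlap. In LC-DTR ears it stood at 6.23, 4.3, 3.85 and 4.18 TPM after croton oil, against 4.21, 3.3 and 4.2 TPM after vehicle, and these groups overlapped. The difference was 0.53 ± 0.15 in LC-DTA ears (adjusted p = 0.00731) and 0.19 ± 0.15 in LC-DTR ears (adjusted p = 0.3; 95% interval -0.13 to 0.51). Ptprc, the pan-leukocyte gene for CD45, was at 25.24 ± 3.6 TPM in LC-DTA croton oil ears, against 11.3 ± 0.853 TPM in LC-DTA vehicle ears. In LC-DTR ears Ptprc was at 11.63 ± 1.03 TPM after croton oil, against 9.08 ± 0.938 TPM after vehicle (SD, n = 4 and 3). Its part in the Il10ra values was not tested.

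Il10rb, the chain shared with the receptors of IL-22 and the lambda interferons, varied least of the 9 genes relative to its level. It stood at 42.53, 45.62, 49.55 and 48.61 TPM in LC-DTA croton oil ears, against 45.11, 43.25 and 44.63 TPM in LC-DTA vehicle ears. LC-DTR ears had 47.48, 52.52, 48.87 and 46.22 TPM after croton oil, against 50.35, 46.38 and 43.45 TPM after vehicle. The groups overlapped in both genotypes. The differences were 0.068 ± 0.069 in LC-DTA ears (95% interval -0.08 to 0.21; adjusted p = 0.413) and 0.061 ± 0.069 in LC-DTR ears (95% interval -0.086 to 0.21; adjusted p = 0.475). After median ratio scaling the LC-DTA difference was 0.15 and passed the threshold (adjusted p = 0.0496, in a range of 0.0496 to 0.939 over 22 alternatives).

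Il20ra, the chain specific to the type I receptor, fell most of the receptor genes in LC-DTA ears. It stood at 15.11, 12.16, 16.99 and 19.99 TPM in LC-DTA croton oil ears, against 37.31, 46.13 and 32.16 TPM in LC-DTA vehicle ears. In LC-DTR ears it stood at 37.86, 42.31, 34.91 and 35.01 TPM after croton oil, against 52.69, 46.08 and 48.45 TPM after vehicle. Neither pair overlapped, and LC-DTR croton oil ears lay in the range of LC-DTA vehicle ears. The difference was -1.22 ± 0.14 in LC-DTA ears (adjusted p = 1.31e-05), rank 199 from the lowest of the 14693 tested genes. It was -0.38 ± 0.14 in LC-DTR ears (adjusted p = 0.0387), a call that was lost in 10 of 22 alternatives, with adjusted p between 0.0097 and 0.121. One of these was median ratio scaling (adjusted p = 0.0671), and others left out LC-DTR vehicle sample 1 (0.121), 2 (0.0501) or 3 (0.0747) or LC-DTR croton oil sample 1 (0.0614), 3 (0.0806) or 4 (0.0883).

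Il20rb, the chain common to both IL-20 receptor types, was the most abundant of the 9 transcripts in every group. It stood at 144.6, 113.5, 101.7 and 125 TPM in LC-DTA croton oil ears, against 238.8, 271 and 216.1 TPM in LC-DTA vehicle ears. LC-DTR ears had 183.3, 234.6, 247.2 and 185.1 TPM after croton oil, against 298.9, 304.9 and 271 TPM after vehicle. The groups did not overlap in either genotype, and the LC-DTR croton oil samples with the lower values were 1 and 4, those with the higher ligand values. The difference was -1.0 ± 0.13 in LC-DTA ears (adjusted p = 2.60e-05) and -0.47 ± 0.13 in LC-DTR ears (adjusted p = 0.00814).

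Il22ra1, which pairs with IL-20RB or IL-10RB, fell in both genotypes. It stood at 28.46, 25.99, 27.3 and 35.53 TPM in LC-DTA croton oil ears, against 44.83, 50.65 and 41.24 TPM in LC-DTA vehicle ears. In LC-DTR ears it stood at 49.11, 66.06, 58.61 and 49.52 TPM after croton oil, against 80.57, 78.39 and 65.69 TPM after vehicle. The LC-DTA groups did not overlap, and in LC-DTR ears croton oil sample 2 lay above vehicle sample 3. The difference was -0.62 ± 0.12 in LC-DTA ears (adjusted p = 7.79e-04) and -0.42 ± 0.12 in LC-DTR ears (adjusted p = 0.0119). The LC-DTR call was lost without vehicle sample 1 (adjusted p = 0.0514, in a range of 0.0027 to 0.0514 over 22 alternatives).

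**Figure D3:**
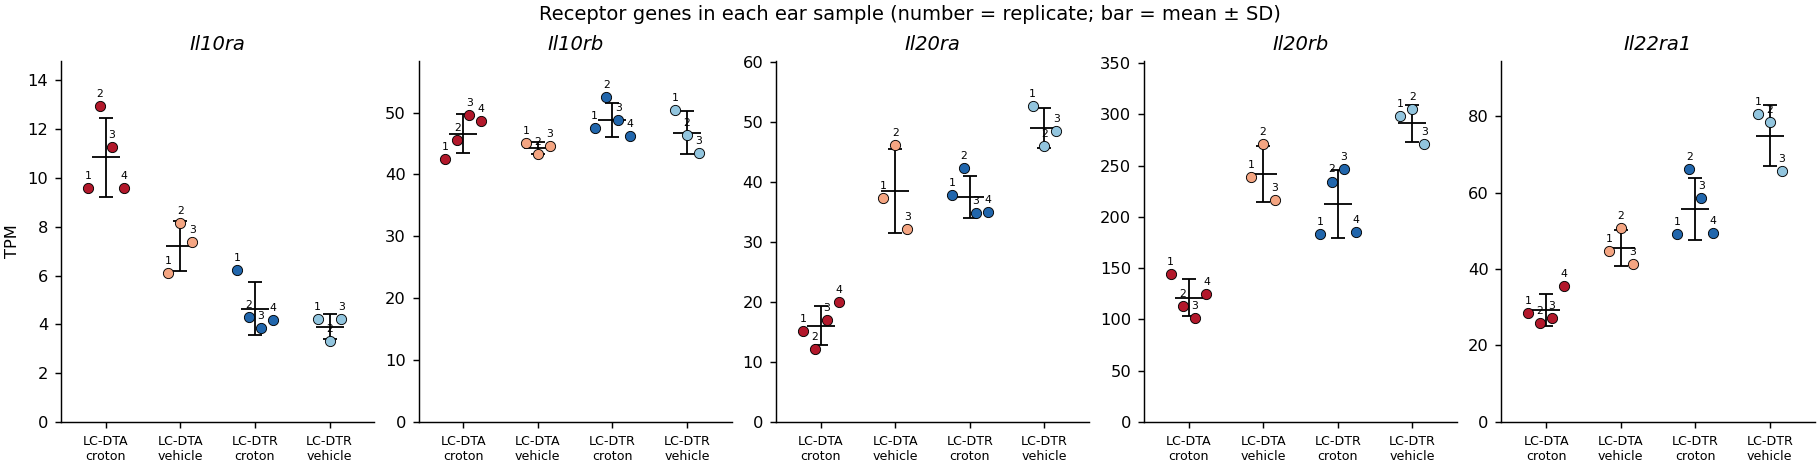
TPM of the 5 receptor genes (panels) in each ear sample of the 4 groups, on linear axes that start at 0; points are samples with their replicate number, and bars are the group mean ± SD. Il20ra lies at 12.16 to 19.99 TPM in LC-DTA croton oil ears, below every other sample, while Il10rb lies between 42.53 and 52.52 TPM in all samples.

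The 5 keratinocyte markers, of which Krt10 had the most transcript in every group, were lower in sum after croton oil in both genotypes. Their sum was 22330 to 25260 TPM in LC-DTA croton oil ears, against 25640 to 26840 TPM in LC-DTA vehicle ears. In LC-DTR ears it was 16850 to 22000 TPM after croton oil, against 28280 to 36010 TPM after vehicle. In LC-DTA ears 2 of the 5 markers were called higher after croton oil and 1 lower, and in LC-DTR ears 1 was called higher and 4 lower. Their part in the receptor values was not tested.

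The responses of the genotypes were then compared directly, as the LC-DTA response minus the LC-DTR response. Il20ra and Il20rb fell further in LC-DTA ears, and no member responded more positively there by the test: 2 of the 9 genes were called lower, where 12.6% of all tested genes were called lower, and 0 were called higher, where 10.5% were. By limma's unadjusted p, 2 genes passed 0.05 as higher, Il19 and Il24. The difference of responses was -0.84 ± 0.20 for Il20ra (adjusted p = 0.0107), which was called in all 21 alternatives with adjusted p between 0.00498 and 0.0326. It was -0.53 ± 0.18 for Il20rb (adjusted p = 0.0489), a call that was lost in 16 of 21 alternatives, with adjusted p between 0.0223 and 0.168. Leaving out LC-DTR vehicle sample 1, 2 or 3, LC-DTR croton oil sample 2 or 3, LC-DTA vehicle sample 1 or 2, or LC-DTA croton oil sample 2, 3 or 4 each ended it. In the same test 3 of the 5 keratinocyte markers were called higher (Krt5, Krt14 and Krt10, at 0.63 to 0.79), Krt1 (0.53 ± 0.21, adjusted p = 0.0832) and Trp63 (0.057 ± 0.16, adjusted p = 0.828) did not pass, and the differentiation gene Lor was called lower (-0.46 ± 0.13, adjusted p = 0.0209). The part of keratinocytes in the receptor differences was not tested.

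For Il19 the difference of responses was 2.01 ± 0.87 (adjusted p = 0.111; 95% interval 0.14 to 3.88), and for Il24 it was 1.80 ± 0.69 (adjusted p = 0.0738; 95% interval 0.32 to 3.28). Neither passed the threshold, and both did so without LC-DTR croton oil sample 4, at 2.68 for Il19 (adjusted p = 0.00935, in a range of 0.00935 to 0.352 over 21 alternatives) and 2.21 for Il24 (0.0217, in a range of 0.0217 to 0.252). Il24 also passed without LC-DTA croton oil sample 4, at 2.13 (adjusted p = 0.035), and without samples 3 and 4 of that group together, at 2.47 (adjusted p = 0.0275). Without LC-DTR croton oil samples 2 and 3 together, the difference for Il19 was 0.77 (adjusted p = 0.352). The differences for Il10 (0.42 ± 0.34, adjusted p = 0.393; 95% interval -0.31 to 1.14) and Il20 (0.40 ± 0.48, adjusted p = 0.575; 95% interval -0.64 to 1.44) did not pass. Those for Il10ra (0.34 ± 0.21, adjusted p = 0.256), Il10rb (0.0062 ± 0.10, adjusted p = 0.973) and Il22ra1 (-0.20 ± 0.18, adjusted p = 0.429) did not pass either.

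Under vehicle alone, 2 of the 9 genes differed between the genotypes, both of them receptor genes. Il10ra was called higher in LC-DTA ears, at 7.21 ± 1.03 TPM, than in LC-DTR ears, at 3.9 ± 0.52 TPM (SD, n = 3 each), a difference of 0.74 ± 0.16 (limma adjusted p = 0.00494), where 19.1% of all tested genes were called higher. Il22ra1 was called lower in LC-DTA ears, at 45.57 ± 4.75 TPM, than in LC-DTR ears, at 74.88 ± 8.03 TPM, a difference of -0.70 ± 0.13 (limma adjusted p = 0.00272), where 5.34% of all tested genes were called lower. It ranked 123 from the lowest of the 14693 tested genes. Neither pair of groups overlapped. In the same comparison 3 of 5 monocyte and macrophage markers were called higher in LC-DTA ears, Cd68 (0.87 ± 0.14, adjusted p = 0.00121), Csf1r (1.20 ± 0.18, adjusted p = 8.72e-04) and Mrc1 (0.97 ± 0.21, adjusted p = 0.00597), with sums of 185.2 to 239 TPM in LC-DTA and 85.31 to 121.6 TPM in LC-DTR vehicle ears. All 5 mast cell and all 4 fibroblast markers were called higher as well, while Ptprc was not called (0.29 ± 0.12, limma adjusted p = 0.0975). T cell markers went both ways: Cd4 was called higher (1.32 ± 0.21, limma adjusted p = 0.00122) and Cd3g lower (-0.51 ± 0.15, limma adjusted p = 0.0246). Cd3d (-0.32 ± 0.14) and Cd3e (-0.20 ± 0.16) were not called. The part of these cells in the Il10ra value was not tested. The other 7 genes did not pass, and of these Il20 was closest: its 3 LC-DTA vehicle samples, from 0.752 TPM upwards, lay above the 3 LC-DTR ones, at up to 0.111 TPM. The Il20 difference was 1.04 ± 0.37 (adjusted p = 0.0523), and it passed in 7 of 22 alternatives, with adjusted p between 0.00502 and 0.177. Without LC-DTR croton oil sample 1, 2 or 3 in the model, which shares the spread over all groups, Il20 passed at 0.0207, 0.0334 and 0.045. After median ratio scaling 50.2% of all calls were higher in LC-DTA ears, against 78.2% with the deposited values, and the median difference over all tested genes was -0.013, against 0.10. Il20ra then passed as lower (-0.47, adjusted p = 0.0331, in a range of 0.0331 to 0.353), as it did without LC-DTA vehicle sample 2 (0.0496).

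After croton oil, 8 of the 9 genes differed between the genotypes. The 4 ligand genes and Il10ra were called higher in LC-DTA ears, where 34.3% of all tested genes were called higher, and Il20ra, Il20rb and Il22ra1 were called lower, where 18.0% were called lower. The ligand differences were 2.13 ± 0.57 for Il19 (adjusted p = 0.00661), 1.75 ± 0.45 for Il24 (adjusted p = 0.00515), 1.44 ± 0.32 for Il20 (adjusted p = 0.00186) and 0.78 ± 0.22 for Il10 (adjusted p = 0.00941). The samples of the 2 genotypes overlapped for Il10, Il19 and Il24 and did not for Il20. Without LC-DTR croton oil samples 2 and 3, 5 genes were called. Il10 (0.32, adjusted p = 0.159), Il19 (0.89, 0.0982) and Il24 (1.08, 0.0934) then missed the threshold, each at the highest adjusted p of its 22 alternatives, whose lowest were 0.00204, 1.94e-04 and 9.59e-04. Il10 also missed it with a pseudocount of 0.1 (0.062) and without LC-DTA croton oil samples 3 and 4 (0.107).

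The receptor differences between the genotypes after croton oil held in all 22 alternatives for Il10ra, Il20ra, Il20rb and Il22ra1. Il10ra was higher by 1.08 ± 0.14 in LC-DTA ears (adjusted p = 3.50e-05), at 10.85 ± 1.61 TPM in LC-DTA and 4.64 ± 1.08 TPM in LC-DTR ears (SD, n = 4 each). Il20ra differed by -1.19 ± 0.13 (adjusted p = 1.44e-05) and ranked 120 from the lowest of the 14693 tested genes. Il20rb differed by -0.80 ± 0.12 (adjusted p = 1.06e-04) and Il22ra1 by -0.91 ± 0.12 (adjusted p = 3.68e-05). None of these 4 overlapped between the genotypes, a count that has no share of all tested genes beside it. Il10rb differed by -0.066 ± 0.064 (adjusted p = 0.402; 95% interval -0.20 to 0.07) and passed only after median ratio scaling (-0.16, adjusted p = 0.0353, in a range of 0.0353 to 0.92). That scaling put 49.8% of all calls higher in LC-DTA ears, against 65.6% with the deposited values.

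The same comparison held a shift in monocyte markers. All 5 monocyte and macrophage markers found were called higher in LC-DTA croton oil ears than in LC-DTR croton oil ears. Among them Ccr2, the chemokine receptor of inflammatory monocytes, was at 37.88 ± 5.31 TPM in LC-DTA and 6.44 ± 1.72 TPM in LC-DTR ears (SD, n = 4 each). Of the 5 neutrophil markers 2 were called higher and 1 lower, with sums of 83.67 to 127.3 TPM in LC-DTA and 62.71 to 137.4 TPM in LC-DTR ears. Fibroblast (3 of 4 higher) and mast cell markers (4 of 5 higher) moved with the genotype as well. The part of these cells in the ligand and Il10ra values was not tested.

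TPM are scaled by transcript length, so levels of different genes can be set side by side, with the limit that the lengths used are not stated in the labels. Within the IL-10 receptor, the ratio of Il10rb to Il10ra was 4.36 ± 0.635 in LC-DTA croton oil ears, 6.25 ± 1.06 in LC-DTA vehicle ears, 10.9 ± 2.29 in LC-DTR croton oil ears and 12.12 ± 1.86 in LC-DTR vehicle ears (SD). Within the type I receptor, the ratio of Il20ra to Il20rb was 0.135 ± 0.0334 in LC-DTA croton oil ears, 0.158 ± 0.0109 in LC-DTA vehicle ears, 0.179 ± 0.0276 in LC-DTR croton oil ears and 0.169 ± 0.0153 in LC-DTR vehicle ears, and each croton oil group overlapped its vehicle group. The summed receptor TPM were 206.8 to 240.3 in LC-DTA croton oil ears, 341.5 to 419.1 in LC-DTA vehicle ears, 320 to 399.8 in LC-DTR croton oil ears and 432.7 to 486.8 in LC-DTR vehicle ears. Il20rb made up 49.2 to 64.6% of that sum over all 14 samples.

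Of 6 related genes outside the family list (Il22, Iltifb, Il22ra2, Ifnlr1, Ifnl2 and Ifnl3), 2 were tested. Il22 was listed at 0 to 0.205 TPM and its near copy Iltifb at 0 in all samples, and reads shared between these copies make both uncertain. Il22ra2, which encodes a soluble decoy receptor that binds IL-22, lies next to Il20ra on chromosome 10, 77.9 kb away at chr10:19621998-19634681. It stood at 10.89, 7.99, 12.15 and 17.35 TPM in LC-DTA croton oil ears, against 18.36, 17.22 and 22 TPM in LC-DTA vehicle ears. LC-DTR ears had 49.89, 57.31, 40.39 and 55.24 TPM after croton oil, against 33.37, 33.25 and 36.9 TPM after vehicle. The genotypes thus moved in opposite directions. Il22ra2 fell by 0.67 on the log2 scale in LC-DTA ears (SE 0.19, adjusted p = 0.00728), although LC-DTA croton oil sample 4 lay above vehicle sample 2. It rose by 0.53 ± 0.19 in LC-DTR ears (adjusted p = 0.0278), a call lost in 5 of 22 alternatives with adjusted p between 0.00592 and 0.0735, among them those without LC-DTR vehicle sample 1 (0.0735) or 2 (0.0704) and without LC-DTR croton oil sample 2 (0.066) or 4 (0.0691). The difference of responses was -1.20 ± 0.26 (adjusted p = 0.00653) and was called in all 21 alternatives. Between the genotypes Il22ra2 differed by -2.02 ± 0.17 after croton oil (adjusted p = 2.68e-06) and by -0.82 ± 0.20 under vehicle (adjusted p = 0.00956). The ratio of Il22ra1 to Il22ra2 was 2.54 ± 0.53 in LC-DTA croton oil ears, 2.42 ± 0.534 in LC-DTA vehicle ears, 1.12 ± 0.244 in LC-DTR croton oil ears and 2.18 ± 0.351 in LC-DTR vehicle ears (SD).

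Genes downstream of the receptors were read in lists. Of 9 genes of Janus kinase and STAT signalling, 5 were called higher and 2 lower after croton oil in LC-DTA ears, where 24.2% of all tested genes were called higher and 34.5% lower, and the median difference was 0.57, against -0.09 over all genes. In LC-DTR ears 5 were called higher and 2 lower, where 22.1% of all were called higher and 29.5% lower, and the median was 0.16, against -0.06 over all genes. The list as a whole was not tested, and its members moved in both directions. Socs3, a feedback inhibitor induced through STAT3, stood at 136.1, 166.7, 188.2 and 180.3 TPM in LC-DTA croton oil ears, against 33.45, 34.72 and 31.11 TPM in LC-DTA vehicle ears. In LC-DTR ears Socs3 stood at 128.4, 77.1, 68.24 and 145.8 TPM after croton oil, against 28.58, 23.71 and 14.84 TPM after vehicle, with samples 2 and 3 lowest as for the ligand genes. It rose by 2.30 ± 0.25 in LC-DTA ears (adjusted p = 7.31e-06) and by 2.15 ± 0.25 in LC-DTR ears (adjusted p = 2.00e-05). Stat3 itself rose by 0.74 ± 0.10 in LC-DTA ears (adjusted p = 4.58e-05) and by 0.90 ± 0.10 in LC-DTR ears (adjusted p = 1.65e-05). Pias3, an inhibitor of STAT3, fell by 1.08 in LC-DTA ears (SE 0.08, adjusted p = 8.54e-07) and by 0.73 in LC-DTR ears (SE 0.08, adjusted p = 1.31e-05).

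Of 8 genes known to be induced by IL-10 in macrophages, 7 were called higher in LC-DTA ears, against 24.2% of all tested genes, and 0 lower, with a median of 1.38. In LC-DTR ears 6 were called higher, against 22.1% of all, and 1 lower, with a median of 1.74. Il4ra, a receptor chain of IL-4 and IL-13, rose by 2.04 ± 0.17 in LC-DTA ears (adjusted p = 1.57e-06) and by 1.70 ± 0.17 in LC-DTR ears (adjusted p = 6.79e-06). Bcl3, a regulator of NF-kB, rose by 2.82 ± 0.26 in LC-DTA ears (adjusted p = 2.60e-06) and by 2.95 ± 0.26 in LC-DTR ears (adjusted p = 2.59e-06). The gene called lower in LC-DTR ears was Il1rn, the antagonist of the IL-1 receptor, named after its value was seen (-0.51 ± 0.089, adjusted p = 3.80e-04). Socs3 is in this list as well as in the signalling list, and these genes respond to many inflammatory signals besides IL-10.

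Of 10 genes that IL-20-type cytokines and IL-22 raise in human epidermis, all 10 were called higher in LC-DTA ears, against 24.2% of all tested genes, with a median of 2.40. In LC-DTR ears 9 were called higher, against 22.1% of all, with a median of 1.74. This list, like those before it, was chosen with earlier results of these data known. Its counts are a description, and the part of these cytokines in them was not tested. The stress keratin gene Krt16 was at 977.5 ± 232 TPM in LC-DTA croton oil ears, against 74.63 ± 24.86 TPM in LC-DTA vehicle ears. In LC-DTR ears Krt16 was at 393.1 ± 154.7 TPM after croton oil, against 60.84 ± 39.82 TPM after vehicle (SD, n = 4 and 3). It rose by 3.72 ± 0.38 in LC-DTA ears (adjusted p = 5.40e-06) and by 2.77 ± 0.38 in LC-DTR ears (adjusted p = 7.53e-05). Krt6a, which encodes its partner keratin, rose by 2.30 ± 0.15 (adjusted p = 4.31e-07) in LC-DTA and by 1.97 ± 0.15 (adjusted p = 1.00e-06) in LC-DTR ears. S100a8, an antimicrobial gene that neutrophils also express, rose by 3.57 ± 0.48 in LC-DTA ears (adjusted p = 3.72e-05) and by 3.84 ± 0.48 in LC-DTR ears (adjusted p = 3.56e-05). Of 4 differentiation genes that these cytokines lower (Krt1, Krt10, Lor and Flg2), 1 was called lower in LC-DTA ears (Lor, -0.40 ± 0.092, adjusted p = 0.00203) and 2 in LC-DTR ears, Krt1 (-0.63 ± 0.15, adjusted p = 0.00298) and Krt10 (-0.79 ± 0.13, adjusted p = 2.37e-04).

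Between the genotypes after croton oil, 34.3% of all tested genes were called higher in LC-DTA ears and 18.0% lower, and the counts of the signalling and epidermal lists were close to these shares. Of the 9 signalling genes 3 were called higher in LC-DTA ears and 1 lower, of the 8 IL-10-induced genes 4 higher and 1 lower, and of the 10 raised epidermal genes 3 higher and 1 lower. Those called lower were Pias3 (-0.34 ± 0.074, adjusted p = 0.00166), Nfil3, a transcription factor gene (-0.91 ± 0.18, adjusted p = 0.00111), and Lcn2, which encodes an iron-binding antimicrobial protein (-0.83 ± 0.27, adjusted p = 0.0201). Socs3 was higher by 0.74 ± 0.23 in LC-DTA ears (adjusted p = 0.0159) and Krt16 by 1.38 ± 0.36 (adjusted p = 0.00538). Stat3 (0.19 ± 0.094, adjusted p = 0.113), S100a8 (0.06 ± 0.45, adjusted p = 0.922) and S100a9 (0.19 ± 0.40, adjusted p = 0.713) did not pass. Mmp3, a matrix protease gene that fibroblasts also express, was at 736.6 ± 90.52 TPM in LC-DTA and 123.4 ± 22.03 TPM in LC-DTR croton oil ears (SD, n = 4 each), a difference of 2.58 ± 0.15 (adjusted p = 2.13e-07). Mmp3 differed under vehicle already, at 211.9 TPM in LC-DTA and 43.64 TPM in LC-DTR ears (2.25 ± 0.17, limma adjusted p = 2.09e-05). Lcn2 was likewise lower in LC-DTA ears under vehicle (-1.25 ± 0.31, limma adjusted p = 0.0111). Pias3, Nfil3, Socs3 and Krt16 were not called under vehicle. By the difference of responses, 10.5% of all tested genes were called higher and 12.6% lower. In that comparison 0 genes of the first list were called higher and 1 lower. Of the second list 1 was higher and 1 lower, and of the third 1 was higher.

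**Figure D4:**
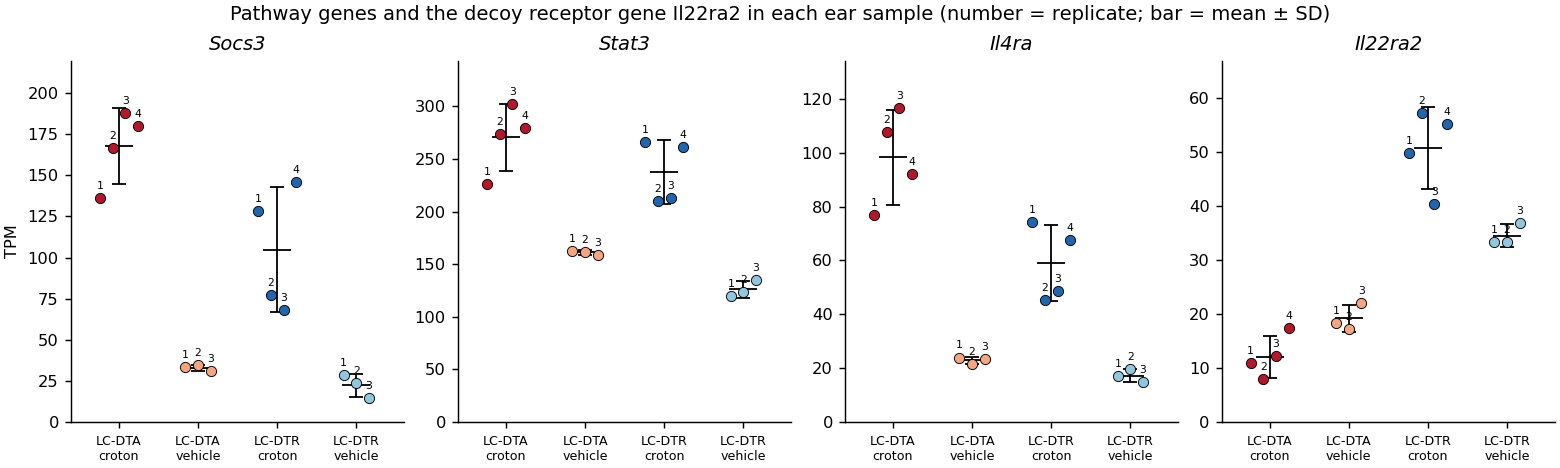
TPM of Socs3, Stat3, Il4ra and Il22ra2 (panels) in each ear sample of the 4 groups, on linear axes that start at 0; points are samples with their replicate number, and bars are the group mean ± SD. Socs3, Stat3 and Il4ra lie higher after croton oil in both genotypes, while Il22ra2 lies at 7.99 to 17.35 TPM in LC-DTA croton oil ears and at 40.39 to 57.31 TPM in LC-DTR croton oil ears.

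The genes around the ligand cluster were read in a window of 300 kb on each side, and the window and the genes named from it were chosen after values were seen. Of 13 neighbours, 10 were tested. In LC-DTA ears the log2 differences of these 10 lay between -0.86 (Srgap2) and 1.15 (Dyrk3), against 1.50 to 4.86 for the 4 ligand genes. In LC-DTR ears they lay between -0.57 (Srgap2) and 0.53 (Dyrk3), against 1.10 to 2.85 for the ligand genes. Mapkapk2, which encodes a kinase of the p38 pathway and lies on the far side of Il10 from Il19, was called higher in both genotypes (0.17 ± 0.067 in LC-DTA ears, adjusted p = 0.0371, and 0.47 ± 0.067 in LC-DTR ears, adjusted p = 8.18e-05). Ikbke, a kinase of innate immune signalling, was called higher in LC-DTA ears (0.31 ± 0.083, adjusted p = 0.00557) and lower in LC-DTR ears (-0.28 ± 0.083, adjusted p = 0.0128). The 4 ligand genes had larger positive differences than each tested neighbour in both genotypes. This is a description only, since none of the 4 ligand genes would have passed the filter without its croton oil samples.

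**Figure D5:**
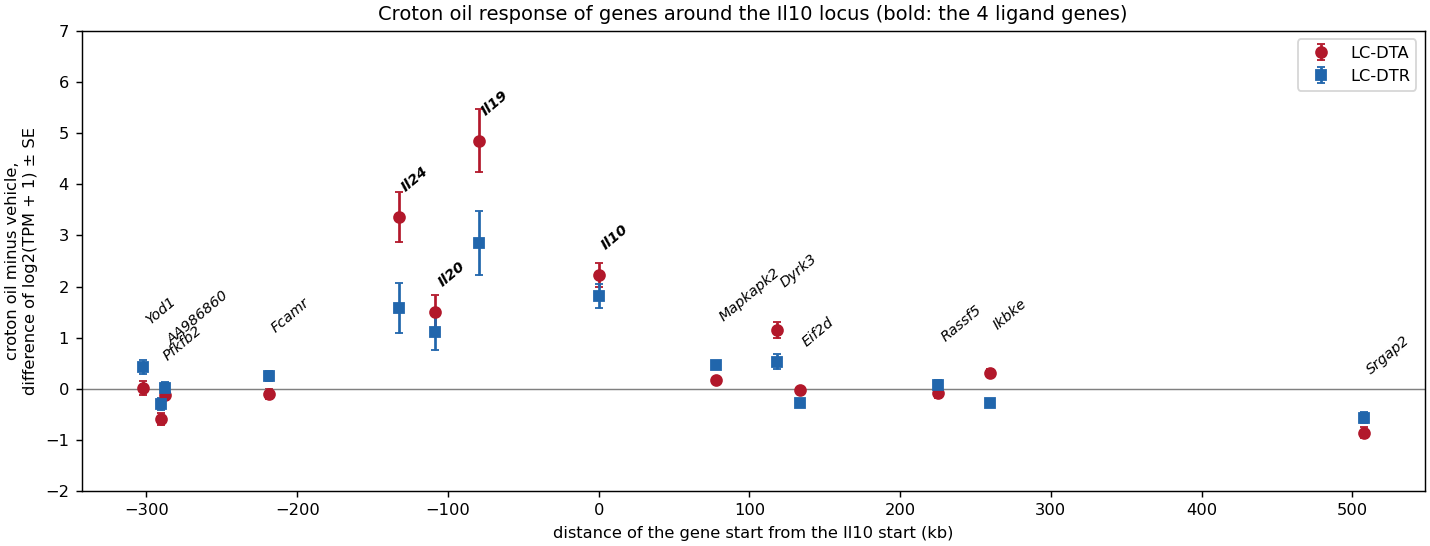
Croton oil minus vehicle differences of log2(TPM + 1) ± SE for the 14 tested genes that lie in or reach into the 300 kb on each side of the ligand cluster, against the distance of each gene's start from the Il10 start in kb; circles are LC-DTA and squares LC-DTR ears. The 4 ligand genes (bold) lie at 1.10 or more in both genotypes, and the highest neighbour is Dyrk3, at 1.15 in LC-DTA and 0.53 in LC-DTR ears.

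For each ligand gene, the transcripts with the most similar profile over the 14 samples are given by Pearson r of log2(TPM + 1), as a description, since the samples fall into treatment groups. They were sought among the tested genes, with predicted genes and clone-named (Rik) genes passed over. Il10 was nearest to Il1b (r = 0.988), the gene for the inflammatory cytokine IL-1β, and then to Rabif (0.987) and the chemokine receptor gene Ccr1 (0.986). Il19 was nearest to Slfn4 (0.979), to the late cornified envelope gene Lce3a (0.977) and to Stom (0.975). Il20 was nearest to Plrg1 (0.972), Nol12 (0.965) and Klhdc4 (0.961). Il24 was nearest to Olr1 (0.972), an oxidized lipoprotein receptor gene, to the cornified envelope precursor gene Sprr2g (0.965) and to Il19 (0.963).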

How the data were processed

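Gene expression was measured in 14 whole ear samples of 4 groups, assigned by the labels. Per the labels' protocols, a Qiagen RNeasy kit gave the RNA, and libraries came from Illumina's TruSeq Stranded mRNA kit. Per the submitters' processing notes, cutadapt, HISAT2, Subread, featureCounts and the build mm10 were used, with no order or version. The authors deposited TPM, 1 value per gene and sample, and each sample sums to 1000000. The way TPM were computed, the annotation and the use of strand are not stated in the labels used here. Depth cannot be read from TPM, so no counting intervals are given, and abundant genes lower the TPM of the rest: the top 10 held 7.21 to 10.1% of a sample.

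Of 24062 rows, 27 named as dates were left out (0.124 to 0.145% of TPM). Genes with at least 1 TPM in at least 3 samples were tested (14693), and 9342 fell below. log2(TPM + 1) was fitted with limma 3.58.1 (R 4.3.3), with 1 mean per group (14 samples in 1 model) and a trended prior variance, and 5 two-sided comparisons, adjusted by Benjamini-Hochberg over all tested genes within each and called under 0.05. Errors of differences are standard errors. Alternatives were pseudocounts of 0.1 and 5, no filter, median ratio scaling, a replicate block, only the groups compared, and leaving samples out. Leaving out LC-DTR croton oil samples 2 and 3, and following Il22ra2, were chosen after seeing the data. The fit was tested on simulated data.

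All 9 members are named, as are up to 4 genes of each list with the lowest p. The 3 genes nearest each ligand by Pearson r are named too, predicted genes and Rik genes aside. A gene named outside this rule is said to be so, save the cell markers. The members and lists were chosen with earlier results of these data known. Of the listed genes, Flg, Adgre1, Ly6g and Trdc were not used here. Gene positions come from GENCODE M21 (GRCm38) and promoters from RefSeq (GRCm38.p6). Software was Python 3.11.15, pandas 2.3.3 and, for figures, matplotlib 3.10.9.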

Additional observations from a re-analysis of the deposited data

Results flagged for a closer look

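Of the 9 members, Il20ra and Il20rb differed in croton oil response between the genotypes by a test of the difference itself. So did Il22ra2, a related gene outside the members that was followed after the data were seen. By this test 12.6% of all tested genes were called lower and 10.5% higher. For Il20ra the difference was -0.84 ± 0.20 on the log2(TPM + 1) scale, the LC-DTA response minus the LC-DTR response (limma adjusted p = 0.0107), with -1.22 in LC-DTA ears and -0.38 in LC-DTR ears. For Il20rb it was -0.53 ± 0.18 (limma adjusted p = 0.0489), with -1.0 in LC-DTA ears and -0.47 in LC-DTR ears, a call that was lost in 16 of 21 alternatives (adjusted p between 0.0223 and 0.168). For Il22ra2, the IL-22 decoy receptor gene beside Il20ra, it was -1.20 ± 0.26 (limma adjusted p = 0.00653), with -0.67 in LC-DTA ears and 0.53 in LC-DTR ears. In groups of 4, Dixon's test flagged no sample of a member. It looks only at the lowest or the highest sample of a group. It therefore cannot show samples that stand apart together, as LC-DTR croton oil samples 2 and 3 did over all genes.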

How the results depend on the processing

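Over the 45 values of the 9 genes in the 5 comparisons and 22 alternatives, 916 of 981 recomputed values kept their direction and side of the threshold, 36 missed it, 15 newly passed it and 14 turned in sign. The genes called in the difference of responses, 2 as reported, were 1 with a pseudocount of 0.1, without the filter, after median ratio scaling, with the replicate block and without LC-DTR croton oil samples 2 and 3, Il20rb being the gene lost. Leaving out 1 sample at a time gave 1 to 4 such genes, 4 to 7 genes called after croton oil in LC-DTR ears (7 as reported), 1780 to 3775 of all tested genes called between the genotypes under vehicle (3595 as reported, 1780 without LC-DTR vehicle sample 2 and 2123 without LC-DTA vehicle sample 3) and 2220 to 3575 in the difference of responses (3389 as reported, 2220 without LC-DTA vehicle sample 2). Without LC-DTR croton oil samples 2 and 3 together, 5 genes were called between the genotypes after croton oil, against 8. No value that had been called turned in sign. The values that did were Il24 under vehicle, at 0.26 with a pseudocount of 0.1 and -0.18 to 0.20 without 1 sample, and the difference of responses of Il10 (-0.38 with a pseudocount of 0.1, -0.045 without LC-DTR croton oil samples 2 and 3), of Il20 (-0.74 and -0.27 under the same settings) and of Il10rb (-0.07 without LC-DTA croton oil samples 3 and 4, and -0.048 to 0.056 without 1 sample). Il10rb after croton oil in LC-DTA ears was -0.0087 without LC-DTA croton oil samples 3 and 4. The cause was not tested. Replicate numbers did not pair the samples: deviations of same-numbered samples correlated at -0.291 to 0.126, and 4 of 13 pairs matched best with their own number. With the block, Il20ra (-0.42, adjusted p = 0.054) and Il22ra2 (0.42, 0.063) in LC-DTR ears missed the threshold and Il20 under vehicle (1.04, 0.0476) passed it. TPM hold no depth, so noise of genes near 0, such as the ligand genes under vehicle, cannot be gauged.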
